A study of Homo sapiens with 3 samples.

Results

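ADRB1, POMC, OPRM1, DRD2 and HTR2A encode receptors and a hormone precursor of adrenergic, opioid, dopamine and serotonin signalling, and they were examined for SOX4 and STAT6 peaks in Hep3B, a widely used line of human liver cancer cells. Both SOX4 and STAT6 are transcription factors. The libraries were made by CUT&RUN, in which an antibody leads a nuclease to its target on chromatin and the released DNA is sequenced. There were 3 libraries from Hep3B cells, for which the labels name no treatment or genetic change, 1 with a SOX4 antibody, 1 with a STAT6 antibody and 1 with a non-specific IgG, and the authors deposited the peaks of the first pair, each called against the IgG library. With 1 library per antibody no value below has a replicate check, no test was made and no p-value is given. The read number behind each library is unknown, and both lists rest on the same IgG library, so that the values of the lists at a site are not independent.

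The 5 genes were taken as listed, out of 20037 protein-coding genes that the gene table places on nuclear chromosomes. A peak was assigned to a gene when it overlapped the gene or the 1000 bp on either side of it. ADRB1 and POMC were chosen by the fold enrichment of their peaks, which stood near the top of both lists, and OPRM1, DRD2 and HTR2A were set beside them. The heights at ADRB1 and POMC are therefore a description of how they were chosen and not a result about these genes.

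ADRB1 encodes the beta-1 adrenergic receptor, which answers noradrenaline and adrenaline through a stimulatory G protein and is best known for its action in the heart. POMC encodes pro-opiomelanocortin, a precursor cut into the stress hormone ACTH, the melanocortins and the opioid peptide beta-endorphin, mainly in the pituitary and the hypothalamus. OPRM1 encodes the mu opioid receptor, a target of beta-endorphin and of morphine, and DRD2 encodes a dopamine receptor that is the main target of antipsychotic drugs. Both act through inhibitory G proteins. HTR2A encodes a serotonin receptor that signals through phospholipase C. These genes are known for roles in nerve, endocrine and heart tissue, and their RNA in Hep3B was not analysed here.

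Of the 5 genes, 4 held peaks in both lists, namely ADRB1, POMC, OPRM1 and DRD2, and HTR2A held none in either list. Over all protein-coding genes, 6.35% held a SOX4 peak, 1.08% held a STAT6 peak and 1.03%, or 206 genes, held a peak in both lists. The 4 genes together carried 13 peaks of the SOX4 list, which held 4513, and 21 of the STAT6 list, which held 1078. Every one of these 21 STAT6 peaks lay wholly inside a SOX4 peak, and each of the 13 SOX4 peaks contained at least 1 STAT6 peak. Sharing was thus 100% of 13 SOX4 peaks (Wilson 95% interval 77.2% to 100%) and 100% of 21 STAT6 peaks (84.5% to 100%), intervals that cover counting error over peaks only. Sharing over the whole lists stood at 14.2% for SOX4 and 78.7% for STAT6. The SOX4 list consists mostly of lower peaks, with a median fold enrichment of 5.88. All 13 peaks were among the 481 of that list with at least 69.9. The 627 shared SOX4 peaks elsewhere had a lower quartile of 68.6. The share among peaks of this height was not counted peak by peak. Since that quartile lies close to 69.9, most of the 481 peaks must be shared ones. Sharing was thus usual at this height and not particular to these genes, and 14.2% is no like comparison for the 13 peaks. ADRB1 and POMC were chosen as shared sites, so that the sharing of their highest peaks follows from the choice. The intervals include these peaks. Of the 21 STAT6 peaks, 12 lay at DRD2, 6 of them inside a single SOX4 peak, so the peaks are not independent draws. The intervals therefore support no statement beyond the count.

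To show the DNA at the starts of these genes, the 250 bases before a transcription start are given 5′ to 3′ on the strand of the gene, from the RefSeq promoter table of assembly GRCh38.p14. Capitals mark the bases under a STAT6 peak. The starts of ADRB1, POMC and OPRM1 are shown because a peak of each list reached them, and that of HTR2A because no peak did. The stretches are, for ADRB1, chr10:114043616-114043865 on the plus strand, for POMC, chr2:25168581-25168830 on the minus strand, for OPRM1, chr6:154038852-154039101 on the plus strand, and for HTR2A, chr13:46898083-46898332 on the minus strand.
ADRB1: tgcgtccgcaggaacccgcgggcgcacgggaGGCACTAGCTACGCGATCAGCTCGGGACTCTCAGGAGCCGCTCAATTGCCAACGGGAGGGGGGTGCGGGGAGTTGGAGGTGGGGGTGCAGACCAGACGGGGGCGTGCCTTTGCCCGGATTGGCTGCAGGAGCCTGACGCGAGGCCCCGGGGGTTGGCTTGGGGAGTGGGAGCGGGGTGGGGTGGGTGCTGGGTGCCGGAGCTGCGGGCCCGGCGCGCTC
POMC: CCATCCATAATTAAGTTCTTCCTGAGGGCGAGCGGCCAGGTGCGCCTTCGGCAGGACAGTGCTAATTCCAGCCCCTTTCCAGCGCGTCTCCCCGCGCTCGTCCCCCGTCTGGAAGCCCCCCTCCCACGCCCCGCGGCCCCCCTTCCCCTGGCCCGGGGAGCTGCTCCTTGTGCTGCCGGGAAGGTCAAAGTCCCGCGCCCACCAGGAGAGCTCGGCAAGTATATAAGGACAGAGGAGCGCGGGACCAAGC
OPRM1: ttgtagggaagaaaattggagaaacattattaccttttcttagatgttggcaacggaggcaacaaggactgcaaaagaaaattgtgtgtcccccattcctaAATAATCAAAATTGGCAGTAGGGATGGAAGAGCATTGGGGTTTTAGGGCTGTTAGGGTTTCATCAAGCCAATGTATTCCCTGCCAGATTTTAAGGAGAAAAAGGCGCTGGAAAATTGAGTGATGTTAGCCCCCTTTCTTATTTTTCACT
HTR2A: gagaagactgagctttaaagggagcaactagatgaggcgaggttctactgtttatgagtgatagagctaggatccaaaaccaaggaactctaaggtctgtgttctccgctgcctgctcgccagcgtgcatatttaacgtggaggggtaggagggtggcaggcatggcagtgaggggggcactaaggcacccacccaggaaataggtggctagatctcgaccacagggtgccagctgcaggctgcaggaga

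SOX4 peaks covered the whole of the printed ADRB1, POMC and OPRM1 stretches. STAT6 peaks covered 87.6% of the ADRB1 stretch, 100% of the POMC stretch and 59.6% of the OPRM1 stretch. The HTR2A stretch lay under no peak. The share of G and C was 72.8% at ADRB1, 66.8% at POMC, 40.4% at OPRM1 and 54.8% at HTR2A. Over the stretches before all 9 listed starts, the 5 under peaks of both lists held 40.4% to 72.8% G and C with a median of 59.6%, and the 4 under no peak held 29.6% to 54.8% with a median of 37.4%. The stretches under peaks were thus mostly higher in G and C, with overlap between the sets, and some of the OPRM1 stretches overlap each other.

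The promoter table listed 9 starts for 4 of the 5 genes. Windows from 250 bases before to 50 bases after each start were searched on both strands for the letters ACAAAG and ACAATG, patterns known for SOX factors. Peaks of both lists reached 5 of the windows, 1 at ADRB1, 1 at POMC and 3 at OPRM1, and none of these 5 held either pattern. STAT6 peaks covered only 89.7% of the ADRB1 window and 66.3% of the OPRM1 window of the start at 154039102. The other 4 windows lay under no peak. A match was found in 2 of them, both at OPRM1, with ACAAAG ending 3 bases before the start at 154010496 and ACAATG ending 6 bases before the start at 154086507, each read on the minus strand. Over all 35116 windows of the table, 16.1% held ACAAAG, 10.8% held ACAATG and 24.5% held either. The windows here are few and some overlap, so no difference between those under peaks and the others can be read from them. The absence of a match says only that these letters were not in these windows. Forms with T in place of the first A, which the SOX4 consensus given by the authors also allows, were not searched.

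**Figure D1:**
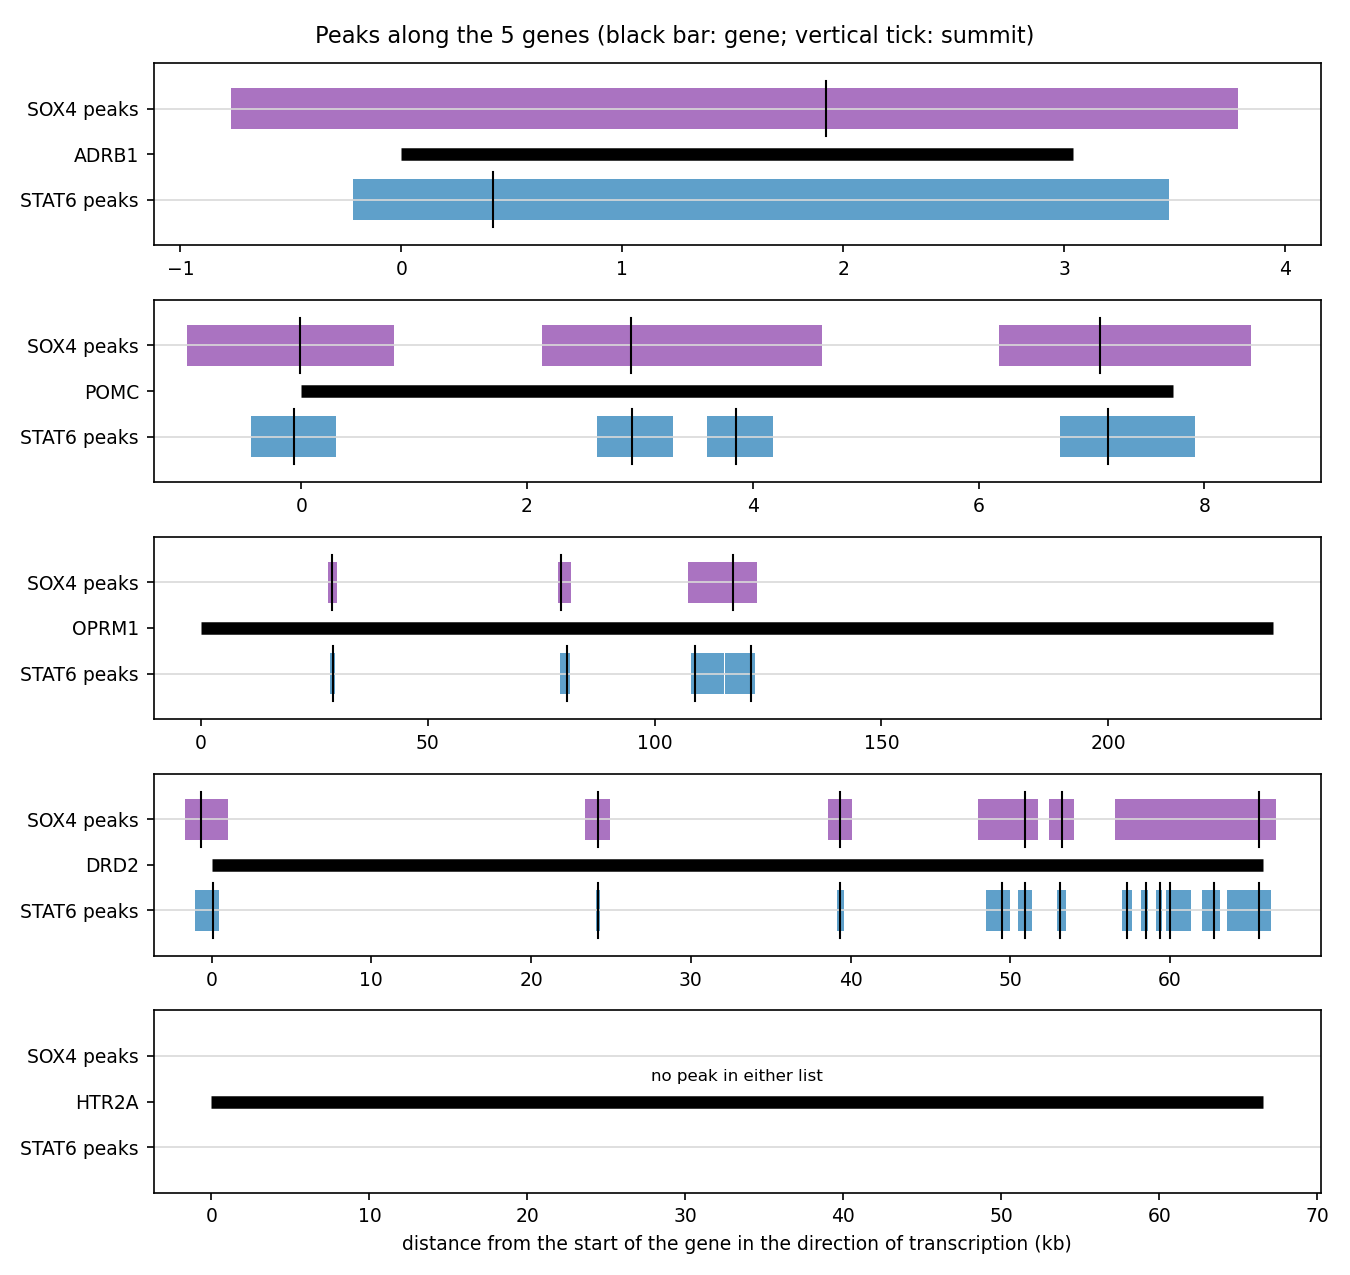
Peaks of SOX4 (purple, above) and STAT6 (blue, below) along each gene (black bar), with distance in kb from the start of the gene on the horizontal axis, 1 panel per gene on its own scale and a vertical tick at each summit. A single peak of each list spans ADRB1, 3 groups of peaks lie along POMC and OPRM1, 6 SOX4 and 12 STAT6 peaks lie along DRD2, and HTR2A has none.

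ADRB1 was spanned from end to end by a single broad peak in each list. The gene lies on chromosome 10 from 114043866 to 114046904 on the plus strand. Its SOX4 peak (chr10:114043097-114047653) was 4557 bp wide and reached from −769 bp to 3787 bp relative to the start of the gene. The fold enrichment over IgG, a ratio given by the authors' peak caller, was 218 there, and the peak held rank 4 among the SOX4 peaks. The −log10 q, a measure of confidence adjusted for the number of positions tested, was 2387. The STAT6 peak (chr10:114043647-114047341) was 3695 bp wide and reached from −219 bp to 3475 bp. Its fold enrichment was 25.3, rank 3 among the STAT6 peaks, and its −log10 q was 87.9.

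The summits of the ADRB1 peaks stood apart. The SOX4 summit lay 1921 bp after the start of the gene and the STAT6 summit 414 bp after it, a distance of 1507 bp within peaks that otherwise matched closely. The STAT6 peak covered 81.1% of the SOX4 peak, the largest such share of a single STAT6 peak among the 21 overlapping pairs. All 3039 bases of the gene lay under a peak in both lists, which held for 9 of the 206 genes with peaks in both.

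POMC carried 3 SOX4 and 4 STAT6 peaks over 7.72 kb, grouped at its start, in its middle and at its far end. The gene lies on chromosome 2 from 25160860 to 25168580 and is read from the minus strand, so its start has the higher coordinate. In the SOX4 list the far end (chr2:25160163-25162402) was enriched 205-fold, at rank 7. The start (chr2:25167755-25169592) was enriched 151-fold, at rank 74. The peak between them (chr2:25163963-25166448) was enriched 86.7-fold, at rank 376. The far end thus stood 2.37 times above the middle.

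The STAT6 peaks of POMC kept the same order. The far end (chr2:25160661-25161859) was enriched 21.5-fold, at rank 12. The start (chr2:25168270-25169024) was enriched 11.7-fold, at rank 236. The middle SOX4 peak contained a pair of STAT6 peaks with fold enrichments of 8.39 (chr2:25165288-25165959) and 7.90 (chr2:25164400-25164989), at ranks 447 and 484. The middle of POMC was therefore near the median of the STAT6 list, which was 7.27, while its far end was near the top.

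Summits at POMC coincided more closely than at ADRB1. At the start of the gene, the SOX4 summit lay at −11 bp and the STAT6 summit at −63 bp relative to the annotated start, 52 bp apart. At the far end the summits were 66 bp apart, and in the middle the nearer STAT6 summit was 11 bp from that of SOX4. SOX4 peaks covered 62.9% of the gene and STAT6 peaks 33.3%.

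OPRM1, the receptor on which the POMC product beta-endorphin acts, held 3 SOX4 and 4 STAT6 peaks. It is by far the longest of the 5 genes, at 236 kb on chromosome 6 from 154010496 to 154246867. Its first SOX4 peak (chr6:154038516-154040535) was enriched 147-fold, at rank 86, and spanned 3 of the annotated starts of the gene, at 154039102, 154039240 and 154039411. The next (chr6:154089157-154092111) was enriched 100.1-fold, at rank 284, the lowest of the gene. The last (chr6:154117897-154133139) was enriched 147-fold, at rank 81, and with 15243 bp it was the widest SOX4 peak of the 5 genes.

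STAT6 peaks lay in the same 3 places of OPRM1. The peak at the cluster of starts (chr6:154038953-154040042) was enriched 15.8-fold, at rank 85. The second (chr6:154089711-154091781) was enriched 13.0-fold, at rank 188. Within the broad SOX4 peak lay a pair of broad STAT6 peaks, one at chr6:154118491-154125795 with 15.4 and rank 103, the other at chr6:154126085-154132581 with 18.3 and rank 43. The summits of this pair lay 8425 bp and 3996 bp from the SOX4 summit, while at the cluster of starts the summits were 159 bp apart.

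The heights of the OPRM1 peaks differed less among themselves than those of POMC or DRD2. The highest SOX4 peak of OPRM1 was 1.47 times its lowest and the highest STAT6 peak 1.41 times its lowest. At DRD2 the highest SOX4 peak was 2.49 times the lowest, and the STAT6 peaks ran from 4.74 to 19.0. Peaks covered 8.55% of OPRM1 for SOX4 and 7.18% for STAT6. The last 114 kb of the gene, part of which overlaps IPCEF1, held no peak of either list. Neither did the start of OPRM1 with the lowest coordinate, at 154010496, although a SOX4 peak with a fold enrichment of 4.37 (rank 2952) lay 5.82 kb before it, outside the margin.

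DRD2 carried the most peaks, 6 of SOX4 and 12 of STAT6 over 65.8 kb on chromosome 11 from 113409605 to 113475398. It is known to be read towards lower coordinates. At its far end lay a SOX4 peak 10048 bp wide (chr11:113408765-113418812), enriched 174-fold, at rank 22. At its start the SOX4 peak (chr11:113474344-113477068) was enriched 116-fold, at rank 195. The 4 SOX4 peaks between them had fold enrichments of 69.9 to 102 and ranks of 274 to 481. Both ends of the gene thus stood above everything between them.

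The broad SOX4 peak at the far end of DRD2 contained 6 separate STAT6 peaks. Their fold enrichments were 19.0, 15.6, 9.33, 5.08, 10.0 and 8.84 in order from the far end inwards. The highest (chr11:113409090-113411835) had rank 34, and its summit lay 3 bp from the SOX4 summit. At the start of the gene, the STAT6 peak (chr11:113474927-113476430) was enriched 16.1-fold, at rank 80. The lowest STAT6 peak of the 5 genes (chr11:113451109-113451344) was 236 bp wide and enriched 4.74-fold, at rank 757. It lay inside their lowest SOX4 peak, enriched 69.9-fold.

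A further site of both lists lay outside DRD2, and it was singled out after its values had been seen. It was 46.1 kb beyond the start of the gene, between DRD2 and TMPRSS5, where the SOX4 list gave 59.9 (rank 539, chr11:113521471-113523055) and the STAT6 list 5.51 (rank 685, chr11:113522125-113522436). Both values lay below those of the start of DRD2.

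HTR2A had no peak in either list. At 66.5 kb on chromosome 13 from 46831546 to 46898082 it is close in length to DRD2. The SOX4 peak closest to it lay at a distance of 489 kb and was enriched 5.10-fold (rank 2583). The closest STAT6 peak lay at 1139.5 kb and was enriched 10.8-fold (rank 292). Without reads of the libraries, it is not known how far below the threshold of the peak caller this gene lay.

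The order of the genes by their highest peak was the same in both lists. In the SOX4 list it ran from ADRB1 (218) and POMC (205) through DRD2 (174) to OPRM1 (147), and in the STAT6 list from ADRB1 (25.3) and POMC (21.5) through DRD2 (19.0) to OPRM1 (18.3). The spread between libraries is unknown, so neighbours in this order cannot be said to differ. Among the 206 genes with peaks in both lists, the median of the highest peak was 129 for SOX4 and 13.3 for STAT6, and all 4 genes lay above both medians. By this measure the 4 genes held ranks 4, 7, 23 and 75 for SOX4 and 2, 17, 39 and 47 for STAT6. DRD2 and OPRM1 therefore stood above the middle of these 206 genes without reaching their top. For ADRB1 and POMC the place follows from the choice. The highest value was not adjusted for the number of peaks it was taken from. DRD2 held 6 SOX4 and 12 STAT6 peaks and OPRM1 3 and 4, against medians of 1.5 and 2 among the 206 genes.

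**Figure D2:**
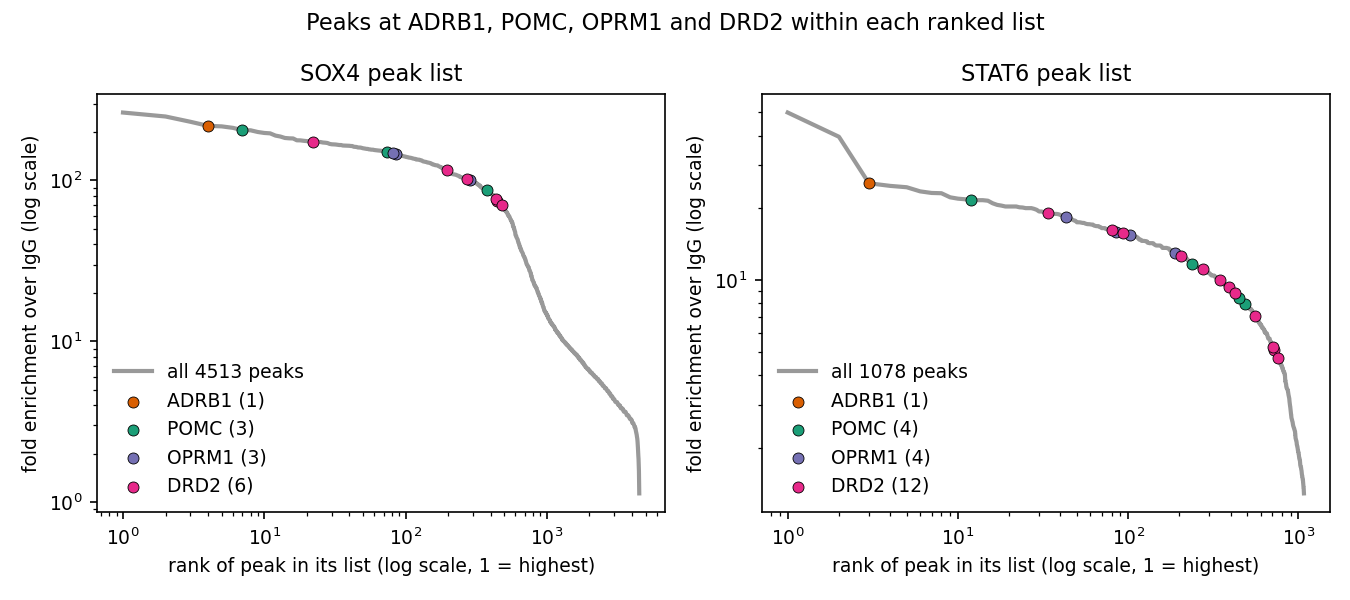
Fold enrichment over IgG against rank for all peaks of the SOX4 list (left) and the STAT6 list (right), both axes on log scales, with the peaks of ADRB1, POMC, OPRM1 and DRD2 as coloured points on the grey curve of the whole list. The 13 SOX4 points lie between ranks 4 and 481, above the steep fall of the curve, whereas the 21 STAT6 points run from rank 3 to rank 757.

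Set among all peaks, the SOX4 peaks of the 4 genes were confined to the upper part of their list and the STAT6 peaks were not. The SOX4 fold enrichments ran from 69.9 to 218 with a median of 116, against a median of 5.88 over the whole list, and the lowest of them was still at rank 481 of 4513. The STAT6 fold enrichments ran from 4.74 to 25.3 with a median of 11.7, against 7.27 over the list, and 17 of the 21 lay above that median. SOX4 peaks shared with STAT6 are high in general. The 627 shared SOX4 peaks elsewhere had a median of 94.8, and 9 of the 13 peaks lay above it. The 827 shared STAT6 peaks elsewhere had a median of 8.54, and 15 of the 21 peaks lay above it. Both counts include the peaks of ADRB1 and POMC, genes chosen for their height, so they are no result about these genes. The SOX4 peaks of OPRM1 ran from 100.1 to 147 and those of DRD2 from 69.9 to 174. Their STAT6 peaks ran from 13.0 to 18.3 and from 4.74 to 19.0.

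The median width of the peaks was above that of shared peaks elsewhere, but the widths varied. The SOX4 peaks of the 4 genes were 1553 to 15243 bp wide with a median of 2486 bp, against 1821 bp for the shared SOX4 peaks elsewhere and 891 bp for the whole list. The STAT6 peaks were 236 to 7305 bp wide with a median of 1090 bp, against 661 bp for those shared elsewhere. At DRD2 several peaks of each list were narrower than these medians of shared peaks elsewhere. The medians of the 4 genes include the peaks of ADRB1 and POMC, genes chosen for their height, so they are no result about these genes. The 2 widest SOX4 peaks lay at OPRM1 and at the far end of DRD2. The 2 widest STAT6 peaks both lay at OPRM1, and that of ADRB1, at 3695 bp, came next.

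Across the 13 SOX4 peaks, a higher SOX4 fold enrichment went with a higher STAT6 peak inside it. Pearson's r between the log2 fold enrichment of each SOX4 peak and that of its highest STAT6 peak was 0.92, and Spearman's rho was 0.91 (n = 13 sites). The highest STAT6 value was not adjusted for the number of STAT6 peaks in each SOX4 peak, which ran from 1 to 6. The 2 highest sites are the ADRB1 peak and the far end of POMC, which were chosen for their height in both lists. Without them r was 0.89 and rho 0.85 (n = 11 sites), and over the sites of OPRM1 and DRD2 alone r was 0.93 and rho 0.97 (n = 9 sites). This is a description across sites of 4 genes in 1 pair of libraries, which share the IgG library and the cells, and no p-value is given. The relation was not computed over the other shared sites, so it cannot be called particular to these genes. The summits of the 21 pairs were 3 to 8425 bp apart with a median of 931 bp, and 9 pairs had summits within 200 bp. The distances of 2850 bp and more all came from the broad SOX4 peaks of OPRM1 and DRD2, which contained several STAT6 peaks each.

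**Figure D3:**
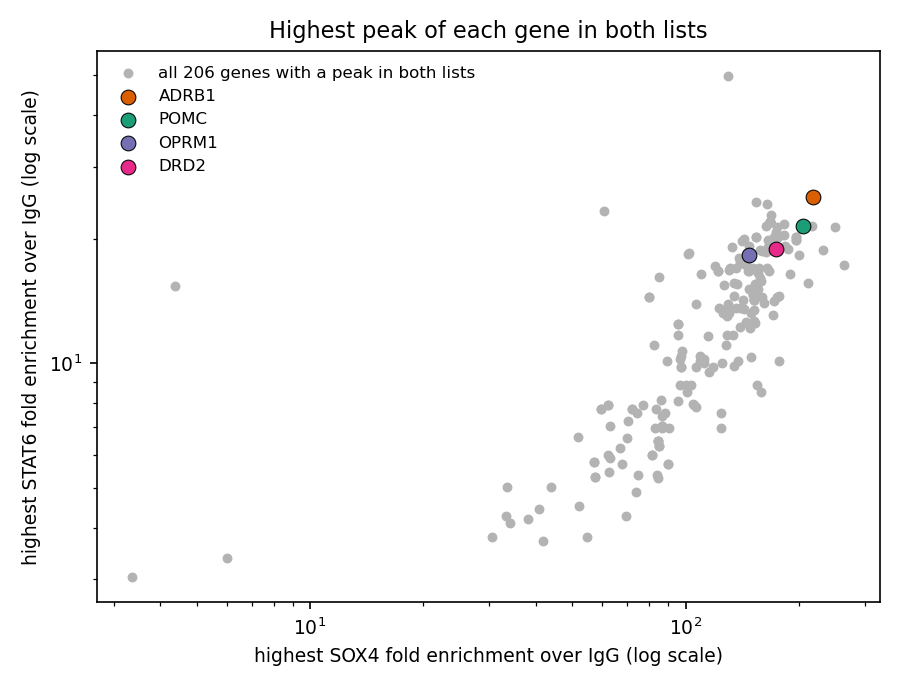
Highest SOX4 fold enrichment (horizontal axis, log scale) against highest STAT6 fold enrichment (vertical axis, log scale) for the 206 protein-coding genes with a peak in both lists (grey points), with the 4 genes coloured. ADRB1 lies at 218 and 25.3 and POMC at 205 and 21.5 in the upper right corner, and DRD2 and OPRM1 lie to the left and below them.

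The genes whose highest peaks were most like those of ADRB1 and POMC were other genes at the top of both lists. Likeness was measured as the distance between genes in log2 fold enrichment over the 2 libraries. For ADRB1 the nearest genes were CES1, a carboxylesterase (distance 0.23), POMC (0.25) and the folate carrier SLC19A1 (0.31). For POMC they were CES1 (0.08) and then, at the same distance of 0.11, the neighbouring genes ASIC3, an acid-sensing ion channel, and CDK5, a protein kinase. No base of CDK5 lay under a peak of either list. It was counted only because peaks at ASIC3 reached its margin of 1000 bp, so these genes stand for the same site. Just above ADRB1 in the SOX4 list stood a peak at TYMS with a fold enrichment of 232, and just below it a peak at CES1 with 217. Just above the highest POMC peak stood a peak at P2RX2 and POLE with 212, and just below it another peak at CES1 with 205.

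**Figure D4:**
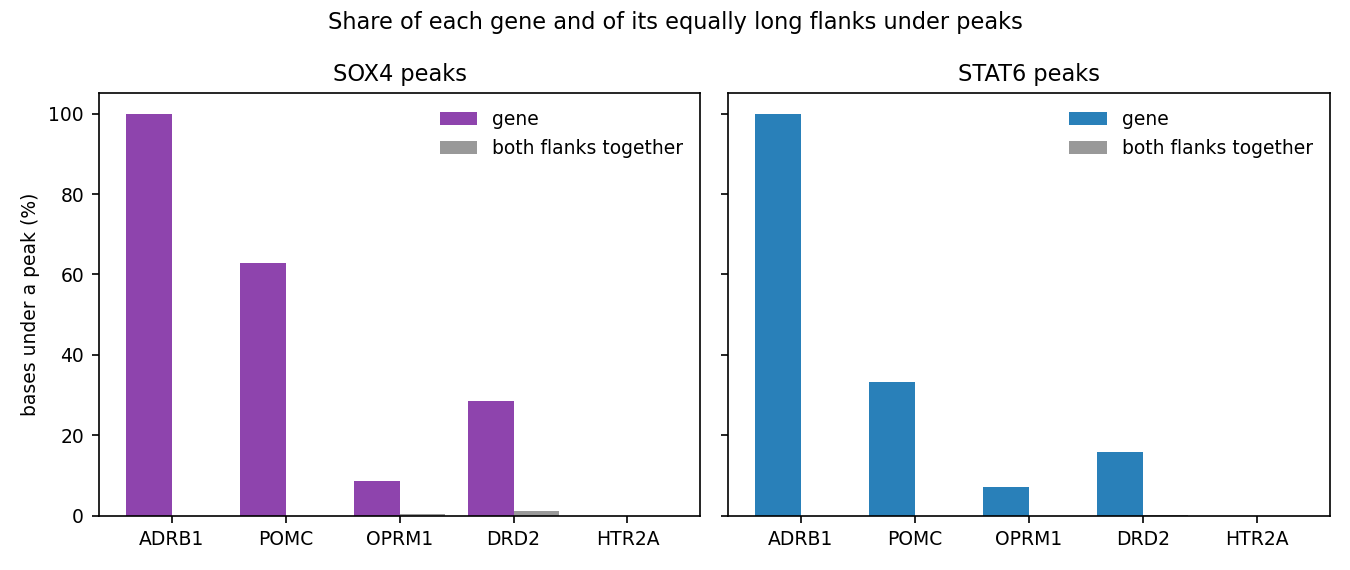
Percent of the bases of each gene under SOX4 peaks (left, purple) and STAT6 peaks (right, blue), beside the same percent for the combined flanks of the gene (grey), each flank as long as the gene and beginning 5000 bp beyond its end. Coverage falls from 100% at ADRB1 through POMC and DRD2 to OPRM1, HTR2A is at 0, and the grey bars do not exceed 1.20%.

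The flanks of the genes held few bases under peaks. In stretches as long as the gene that began 5000 bp beyond its ends, no base lay under a peak of either list at ADRB1, POMC and HTR2A. At OPRM1 the flanks were covered to 0.293% by SOX4 peaks and to 0% by STAT6 peaks. At DRD2, where the flank includes the site towards TMPRSS5, they were covered to 1.20% and 0.237%, against 28.5% and 15.8% of the gene itself.

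Of the neighbouring protein-coding genes, 2 held a SOX4 peak and 0 held a STAT6 peak. The shares over all protein-coding genes were 6.35% and 1.08%, and the neighbours are too few to be set against them. EFR3B ends 1.73 kb from the far end of POMC and DNMT3A begins 59.3 kb beyond its start, and neither held a peak within the margin of 1000 bp. EFR3B missed it narrowly, since the SOX4 peak at the far end of POMC began 1028 bp from its end and the STAT6 peak there 1526 bp from it, and with a margin of 3000 bp both would be counted at EFR3B as well. ANKK1, 9.19 kb from the far end of DRD2, and TMPRSS5 held none. The same was true of NHLRC2 beside ADRB1, of IPCEF1 and CNKSR3 at OPRM1 and of ESD and SUCLA2 on either side of HTR2A. CCDC186, 74.0 kb from ADRB1, and RGS17, 879 kb from OPRM1, held 1 SOX4 peak each and no STAT6 peak.

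Other genes of the same signalling systems were examined from lists of 69 receptors, peptide precursors, enzymes, transporters and effectors, the 5 genes included. The lists do not hold every gene of these systems. Peaks in both lists were found at 6 of the 69, and 59 held no peak in either list. Without the 5 genes, 2 of 64 held peaks in both lists, and the share over all protein-coding genes was 1.03%. By list these were 1 of 8 adrenergic receptors, 1 of 4 opioid receptors, 1 of 4 opioid peptide precursors, 1 of 5 dopamine receptors, 1 of 14 serotonin receptors and 1 of 8 enzymes of monoamine synthesis and degradation. None of 5 melanocortin receptors, 3 precursor-processing enzymes, 5 monoamine transporters and 13 G proteins, receptor kinases and arrestins did. The lists were written with earlier results of these data known, and genes were left out of them after their values were known, so these counts are a description from which no share of the systems can be read.

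Among the genes with peaks in both lists, TH and HTR1A resembled neither ADRB1 nor POMC in height. TH, the enzyme of the first step from tyrosine to dopamine, was enriched 124-fold in the SOX4 list (rank 164, chr11:2170199-2172055) and 7.59-fold in the STAT6 list (rank 512, chr11:2170848-2171455). HTR1A, a serotonin receptor that acts through inhibitory G proteins, was enriched 62.3-fold (rank 527, chr5:63959917-63961346) and 6.01-fold (rank 642, chr5:63960482-63960868). HTR1A was thus the serotonin receptor with peaks in both lists, and HTR2A was among 13 of 14 with none in either.

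A SOX4 peak without a STAT6 peak lay at 4 genes of these lists. The highest, at the adrenergic receptor gene ADRB3, had a fold enrichment of 28.6 (rank 743). The others were at CPE, which trims peptide hormones such as those cut from POMC (12.6, rank 1097), at the dopamine receptor gene DRD3 (6.92, rank 1877) and at MC2R, the receptor for ACTH (3.64, rank 3514). All 4 values were below the lowest SOX4 peak of ADRB1, POMC, OPRM1 and DRD2. No gene of the lists had a STAT6 peak without a SOX4 peak. Over all 20037 protein-coding genes, 1272 held a SOX4 peak and 216 a STAT6 peak, and 206 held both. A STAT6 peak without a SOX4 peak was thus rare among all genes, and its absence here is no result about these lists.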

How the data were processed

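CUT&RUN was performed by the authors on Hep3B cells with SOX4, STAT6 and IgG antibodies, and paired-end reads were processed in Partek Flow. The submitters' processing notes name Partek, BWA and hg38. The peak caller and its threshold are not given in the sources used here. For each peak of the SOX4 and STAT6 libraries the authors deposited its position and summit, a fold enrichment over IgG (a ratio), and −log10 values of p and of q. A display score deposited with them was not used. Read numbers are unknown, which limits the precision of every value.

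Positions were made 1-based. Genes came from RefSeq, assembly GRCh38.p14, which is hg38. Peaks were assigned to a gene within a margin of 1000 bp and counted as shared from 1 bp of overlap. Peaks were ranked by fold enrichment within their list, ties taking the lowest rank. Exons were not used here. The named genes are the 5 listed, their neighbours on each side, the 3 genes with the most alike highest peaks for ADRB1 and POMC, peaks of adjacent rank, and genes of the pathway lists with peaks. Some genes of these systems are not reported here and were left out of the pathway lists and their counts. The 5 genes and the lists were chosen with earlier results of these data known. Gene hits, overlaps and covered bases were tested on simulated data with planted intervals. Alternatives were no margin or 3000 bp, a −log10 q or a fold enrichment of at least 5, an overlap of 50% of both peaks, and summits within 200 bp. Python 3.11.15, numpy 2.4.6, pandas 2.3.3 and scipy 1.17.1 were used.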

Additional observations from a re-analysis of the deposited data

How the results depend on the processing

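For 12 results there were 32 alternatives, of which 27 left the value inside its interval or inside a factor of 1.5 and 5 did not. A change of direction was possible only for the correlations across sites, which kept their sign. The 4 genes with peaks in both lists, the 13 SOX4 peaks and the 6 genes of the pathway lists stayed at these counts without a margin, at 3000 bp, and with a minimum of 5 for the −log10 q or for the fold enrichment. The 21 STAT6 peaks became 20 with either minimum, since the lowest DRD2 peak was lost. Of the 5 that moved, 1 was the number of neighbouring genes with a STAT6 peak, which went from 0 to 1, EFR3B, at 3000 bp. The other 4 concerned shared peaks. When 50% of both peaks had to be covered, 23.8% of the STAT6 and 38.5% of the SOX4 peaks were shared, which follows from STAT6 peaks that are narrower than the SOX4 peaks around them. With summits within 200 bp these shares were 42.9% and 69.2%. A minimum −log10 q of 5 on both sides gave 100% and 92.3%. The correlations across sites without the chosen peaks and the margin of the neighbouring genes were added after the data were seen. No paired analysis was possible because there was a single library per antibody. Since read numbers are unknown, a missing peak at HTR2A cannot be read as absence of signal.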

Other observations

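Fold enrichments recurred exactly within a list, which limits how finely peaks can be ranked. In the STAT6 list, 42.2% of the 1078 peaks shared their fold enrichment with at least 1 other peak, and 15 of the 21 peaks at ADRB1, POMC, OPRM1 and DRD2 did. The highest POMC peak, at 21.5, was tied with peaks at CES1 and ASIC2, and the highest DRD2 peak, at 19.0, with a peak at KCNK9. In the SOX4 list, 57.9% of the 4513 peaks shared their value with another peak, but 2 of the 13 at these genes did, both at DRD2. The cause of the repeated values was not tested.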
